A study of Mus musculus with 12 samples.

Results

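Cycling pre-B cells past the Igll1 stage were studied in the neonatal mouse liver, at the age when this organ still makes B cells. Pre-B cells are B-cell precursors that have rearranged an immunoglobulin heavy chain gene. The new heavy chain is carried to the surface with the surrogate light chain, made from Igll1 and Vpreb1, as the pre-B cell receptor, and signals from this receptor and from the interleukin-7 receptor drive a burst of division. The surrogate light chain genes are then shut off, division ends, and the resting small pre-B cell rearranges a light chain gene and becomes an immature B cell with surface IgM. The cells described here hold both programs, since transcripts of division are present and those of the surrogate light chain are nearly gone.

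The cells were chosen by a rule on UMIs (unique molecular identifiers, 1 per captured mRNA molecule). A barcode was kept if it held between 500 and 50000 UMIs, with mitochondrial genes giving no more than 20% of them. A kept barcode was a member with at least 2 UMIs of Cd79a and Cd79b, which encode the signaling chains of the B cell receptor, and at least 2 UMIs of Top2a and Mki67, which mark dividing cells. It also had at most 2 UMIs of Igll1 and Vpreb1, no UMI of Cd3e, Nkg7, Lyz2, Stab2 or C1qa, and under 10% of its UMIs from adult globins. The rule found 6604 members among 207537 barcodes, of which 202557 were kept.

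Livers came from C57BL6/J pups killed on postnatal day 11, according to the labels. In the anemia group (n = 6) blood was drawn from the facial vein 5 times, on alternate days from day 2 to day 10, with 20 µL removed per g of body weight each time. The control group (n = 6) had daily needle sticks without a blood draw. Each mouse gave 1 library of enzymatically dissociated liver cells, spun slowly but not sorted for B cells, and the labels give all 12 libraries the same batch. Transcripts of Xist were above those of the Y-linked genes in 4 control and 2 anemia mice, so that sex was not balanced between the groups.

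Control libraries held 46252146 to 65960679 UMIs and anemia libraries 52021617 to 74545930. The members of a mouse together held 608219 to 3472021 UMIs. Any pair of the 12 libraries shared 56 to 122 barcode sequences, and 12 member barcodes were also a member barcode in another library. Of the member barcodes 4.89% were listed in another library, the same share as for all barcodes. Doublet calling marked 5.88% to 10.1% of the members in control libraries and 6.35% to 15.3% in anemia libraries. In surrogate light chain cycling cells, a population used for comparison, it marked 2.97% to 9.40% in control and 8.62% to 38.6% in anemia libraries, so that doublet calls were more frequent there in anemia. Of all kept cells it marked 11.2% to 14.3% in control and 12.3% to 16.8% in anemia libraries, a share set beforehand by the number of kept barcodes.

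The markers of the rule are given as a description only, since they chose the cells. As medians over 12 mice of each mouse's summed UMIs (CPM, UMIs scaled to a common total of all UMIs of the population in that mouse), Cd79a stood at 903, Cd79b at 1199, Top2a at 1956 and Mki67 at 687. Igll1 stood at 44.3 CPM and Vpreb1 at 8.90 CPM. At the edges of the rule, 362 members had exactly 2 UMIs of Cd79a and Cd79b, while 320 cells missed it with 1. For Top2a and Mki67 427 members had exactly 2 UMIs and 1049 cells missed the rule with 1. For Igll1 and Vpreb1 5499 members had no UMI, 323 had 2, and 211 cells missed the rule with 3.

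3 other populations of the same libraries served as a reference. Surrogate light chain cycling cells (1773) met the same rule but had over 2 UMIs of Igll1 and Vpreb1, non-cycling past-Igll1 cells (24397) had under 2 UMIs of Top2a and Mki67, and cycling NK/T cells (2587) had at least 2 UMIs of Cd3e and Nkg7 in place of Cd79a and Cd79b. B-lineage transcripts that the rule did not read were present in the members. Ebf1, a transcription factor that sets up the B lineage, stood at a median of 5309 CPM in the members and 10.8 CPM in cycling NK/T cells. Vpreb2, the other surrogate light chain gene of its kind, stood at 0.589 CPM in the members and 40.2 CPM in surrogate light chain cycling cells.

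Because depth differed, with a median of 7369.25 UMIs in surrogate light chain cycling cells, 1374.5 in non-cycling past-Igll1 cells and 4946 in cycling NK/T cells, shares of cells with a UMI were read after thinning every cell to 2000 UMIs. Thinning left out 277 members, 13 surrogate light chain cycling, 20109 non-cycling and 69 cycling NK/T cells. The shares that follow describe cells that the rule itself divided. The members' median lay between those of the other B-lineage populations for Igkc, Ms4a1, H2-Aa and Ighd, above both for Il7r, Vpreb3 and Ighm, and below both for Dntt. The values per mouse overlapped with those of surrogate light chain cycling cells for Il7r and Vpreb3, and with those of non-cycling cells for Ighm. Dntt, the enzyme that adds bases at heavy chain joints in early precursors, was seen in a median of 0.313% of members, 14.7% of surrogate light chain cycling cells and 0% of cycling NK/T cells. In non-cycling cells Dntt was seen in 0.293% to 1.38% of the cells of a mouse, which overlaps with 0% to 1.41% in the members. Il7r, the interleukin-7 receptor, was seen in 33.9%, 27.6% and 11.8%, and in 5.57% of cycling NK/T cells. Vpreb3, a partner of immunoglobulin chains in B-cell precursors, was seen in 84.9%, 84.4% and 42.3%, and in 0% of cycling NK/T cells.

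Immunoglobulin and antigen presentation genes were seen more often in the members than in surrogate light chain cycling cells. Ighm, the mu heavy chain, was seen in 93.4% to 97.6% of the members of a mouse and in a median of 13.5% of cycling NK/T cells, which are not of the B lineage. In the other populations it was seen in a median of 87.3% of surrogate light chain cycling and 94.8% of non-cycling cells. Igkc, the kappa light chain constant region, was seen in 81.4% of members, 26.0% of surrogate light chain cycling cells, 89.8% of non-cycling cells and 1.70% of cycling NK/T cells. These counts do not tell a rearranged kappa transcript from one of the unrearranged locus. Ms4a1, which encodes CD20, was seen in 9.24%, 1.44%, 49.7% and 0%, in the same order of populations. H2-Aa, a chain of MHC class II, was seen in 25.2%, 6.29%, 52.9% and 2.60%. Ighd, the heavy chain of IgD and a mark of maturing B cells, was seen in 8.97%, 4.21%, 19.8% and 0.233%. Without thinning, the members' shares were 98.4% for Ighm, 90.8% for Igkc, 12.4% for Ms4a1, 35.7% for H2-Aa, 16.1% for Ighd, 50.0% for Il7r, 91.0% for Vpreb3 and 0.847% for Dntt.

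Of the thinned members, a median of 45.7% had at least 3 UMIs of the light chain constant regions Igkc, Iglc1, Iglc2 and Iglc3, and 8.40% had a UMI of Rag1 or Rag2, the recombinase that joins V, D and J segments. The markers thus place the members in the B lineage past the surrogate light chain stage, but they do not separate pre-B cells from dividing cells that already carry a light chain. Fcer2a (CD23), a marker of mature B cells, was seen in 0.294% of members.

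**Figure D1:**
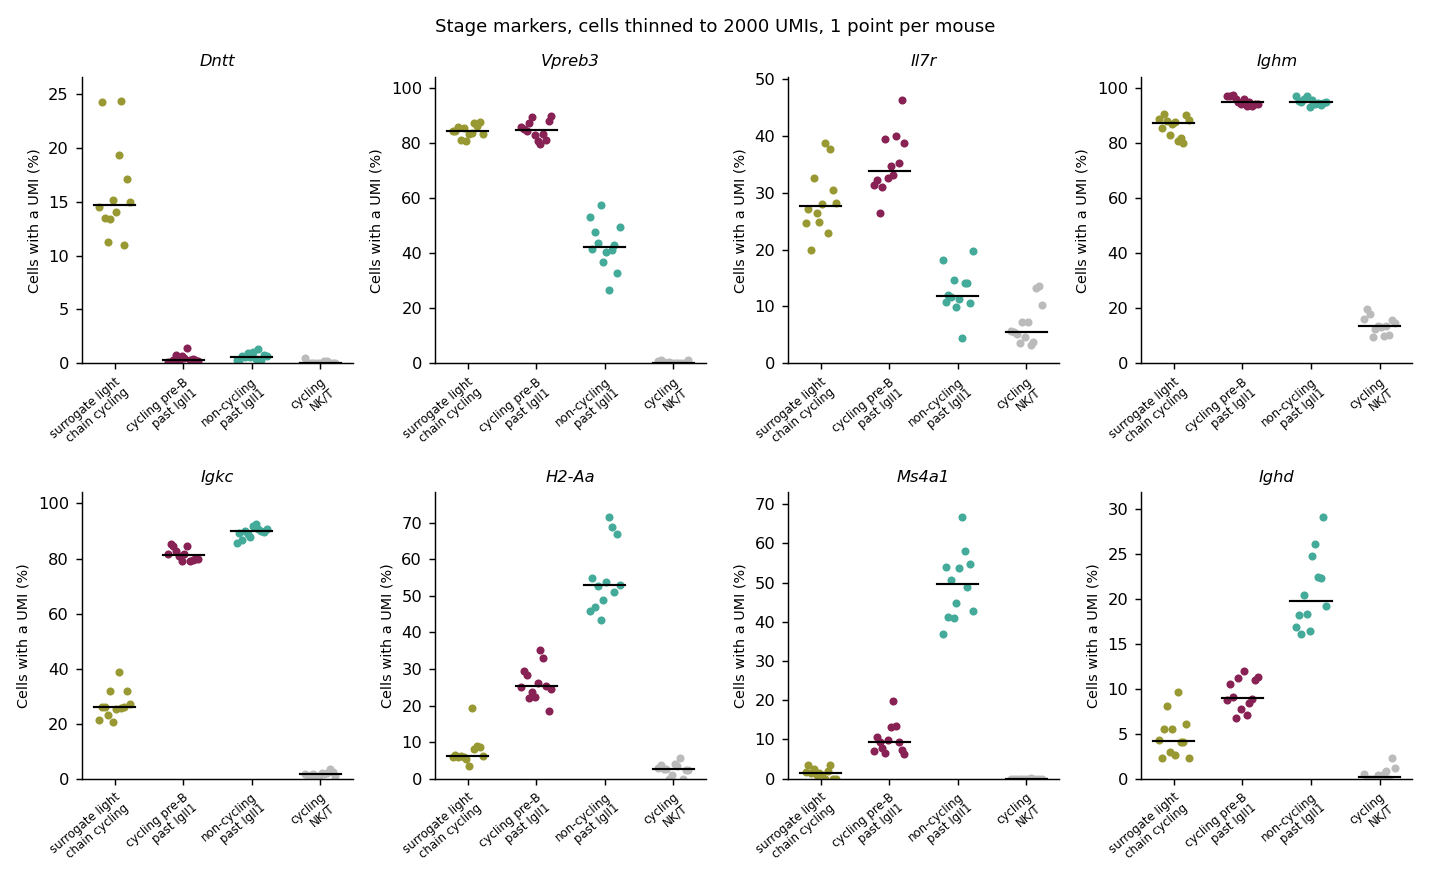
Percentage of cells with at least 1 UMI of 8 stage markers (y axis, percent) in 4 populations (x axis), after thinning each cell to 2000 UMIs. Each point is 1 of 12 mice and each bar the median over mice. For Igkc, H2-Aa, Ms4a1 and Ighd the members' median lies between those of surrogate light chain cycling and non-cycling cells.

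The expression profile was compared with that of surrogate light chain cycling cells of the same mice by edgeR's quasi-likelihood test with mouse as a block. The rule split these populations by Igll1 and Vpreb1, so the comparison describes the split and tests nothing. Of 10747 genes, 32.4% were called higher and 31.4% lower in the members (adjusted p under 0.05), which sets the background for the lists that follow. The genes with the largest difference towards the members were Iglc2 with a log2 fold change of 6.11, Iglc3 (5.64), Iglc1 (5.46), Fcmr (4.28), Cd74 (3.56), Col1a1 (3.41), Col1a2 (3.38), Cd2 (3.33), Ms4a1 (3.29) and Tmem163 (3.29). The lambda light chains, the IgM receptor Fcmr, the MHC class II chaperone Cd74 and Ms4a1 belong to B cells at and after the light chain stage, whereas Col1a1 and Col1a2 are collagen genes of stromal cells.

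The largest differences away from the members were Vpreb2 (-6.15), Gm41335 (-5.22), Dntt (-4.87), Arpp21 (-4.36), Erg (-3.64), Kit (-3.14), Nme4 (-3.04), Ubash3a (-2.88), Impdh1 (-2.68) and Srm (-2.63). Kit is the stem cell factor receptor of early precursors, Erg a transcription factor of the pro-B stage, and Impdh1 and Srm serve the synthesis of nucleotides and polyamines in growing cells.

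By list, 7 of 8 immunoglobulin constant regions were higher and 1 lower in the members (median log2 fold change 3.69), and 13 of 15 B cell maturation genes were higher and 2 lower (1.35). Of 16 Myc and nucleolar growth genes 2 were higher and 14 lower (-1.21), and of 27 hypoxia and glycolysis genes 4 were higher and 15 lower (-0.67). DNA replication genes were higher in 4 and lower in 22 of 31 (-0.28), while mitosis genes were higher in 21 and lower in 2 of 31 (0.21). All 23 hepatocyte genes measured as a sign of free RNA were higher in the members, which were the shallower of the populations compared. The median over all genes was 0.01.

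The question of the design was whether repeated blood loss changed these cells in number or in expression. Control livers gave 782, 713, 748, 664, 883 and 584 members, and anemic livers 441, 148, 380, 506, 298 and 457, so that the groups did not overlap in count. As a share of kept cells, members made up 4.60% ± 0.874 (SD, n = 6) in control mice, with a lowest value of 3.29%, a median of 4.74% and a highest of 5.49%. In anemia mice they made up 2.13% ± 0.825 (SD, n = 6), with a lowest value of 0.837%, a median of 2.27% and a highest of 2.96%. The share was lower in 6 of 6 anemia mice than in every control mouse, a ratio of means of 0.462 (exact two-sided Mann-Whitney test, p = 0.00216, the smallest that 6 against 6 allow, adjusted p = 0.0173 over 8 shares). Without anemia 2 and 3, a setting chosen after seeing the data, the member share of kept cells differed by -2.08 percentage points (exact p = 0.00952, the smallest that 6 against 4 allow, adjusted p = 0.0762). A share of kept cells also moves when other cell types become more or less frequent. Kept cells include barcodes that the globin limit of the rule bars from membership. Below that limit lay 11097 of 15415 kept cells in anemia 6, with 457 members. In control 6 it was 15024 of 17774, with 584 members. Over this denominator the share in anemia 6 lay above that in control 6, so the groups overlapped. The other anemia mice stayed below every control mouse, and this share was not tested. The sorted or absolute number of cells per liver was not measured here.

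Relative to the other B-lineage cells, the differences did not pass the adjusted test. Members made up 21.2% ± 2.36 (SD, n = 6) of B-lineage cells in control and 16.0% ± 4.32 (SD, n = 6) in anemia mice, with 4 anemia mice below every control (exact p = 0.0649, adjusted p = 0.173). Of B-lineage cells with at most 2 UMIs of Igll1 and Vpreb1, 23.5% ± 2.67 were cycling in control and 17.8% ± 5.02 in anemia mice (exact p = 0.0649, adjusted p = 0.173). Anemia 2 and 3 gave the lowest of these values, 10.3% and 13.9%, and the other 4 anemia mice 16.9% to 23.1%. When every cell was thinned to 2000 UMIs before the rule was applied, both shares passed the test. The member share of B-lineage cells then differed by -14.4 percentage points (exact p = 0.00216, adjusted p = 0.00866) and the cycling share of past-Igll1 B-lineage cells by -15.1 percentage points (exact p = 0.00433, adjusted p = 0.0173). Both shares were higher after thinning, so these points are not on the scale of those above. In control 1, 744 of 1248 B-lineage cells were members after thinning, beside 782 of 3230 before. In anemia 1 it was 401 of 879, beside 441 of 2172 before. Thinning also removed UMIs of Igll1 and Vpreb1, so that cells above that limit could come to pass it. Control 1 had 67 surrogate light chain cycling cells after thinning, beside 186 before, of which 0 held fewer than 2000 UMIs. Anemia 1 had 43, beside 114 before, again with 0 below 2000 UMIs. The thinned shares are therefore not limited to members as defined above. The denominators changed too, since 12124 of 14240 non-cycling past-Igll1 cells in control and 7985 of 10157 in anemia mice held fewer than 2000 UMIs. The median depth of these cells was 1341.75 UMIs in control and 1537.5 UMIs in anemia mice, and its part in the thinned shares was not tested. Members made up 80.3% ± 0.897 of the cycling B-lineage cells in control and 77.0% ± 4.22 in anemia mice (exact p = 0.0931, adjusted p = 0.186).

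**Figure D2:**
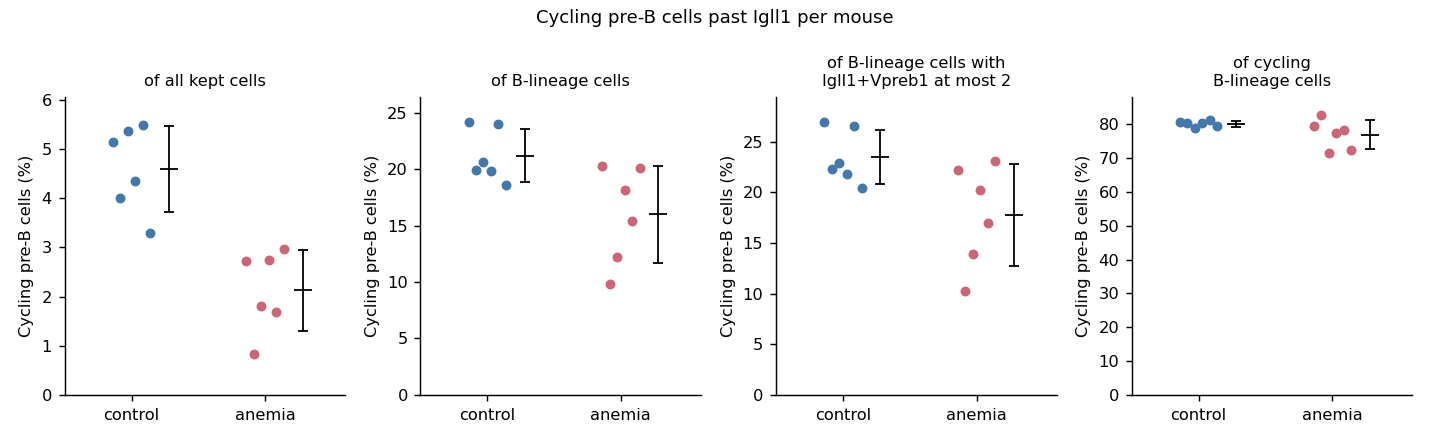
Cycling pre-B cells past Igll1 as a percentage (y axis) of 4 denominators in control and anemia mice (x axis). Each point is 1 mouse and the bars beside them are mean ± SD (n = 6 per group). The groups do not overlap for the share of kept cells, 3.29% to 5.49% in control and 0.837% to 2.96% in anemia mice.

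The stage make-up of the members was compared through 4 shares of thinned members, none of which passed the test. Members with an Ighd UMI made up 9.01% ± 1.67 in control and 9.75% ± 1.92 in anemia mice (exact p = 0.485), and members with a Rag1 or Rag2 UMI 8.19% (6.89% to 10.6%) and 9.47% (7.75% to 11.5%) (exact p = 0.180, adjusted p = 0.287). Members with at least 3 light chain UMIs made up 47.5% ± 3.35 and 45.9% ± 6.06 (exact p = 0.485). Members with more UMIs of mitosis than of DNA replication genes, a coarse reading of the cell cycle, made up 45.7% ± 1.63 and 47.2% ± 3.54 (exact p = 0.310, adjusted p = 0.413).

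Gene expression in the members was compared between 6 control and 6 anemia mice on UMIs summed per mouse (edgeR quasi-likelihood test). Of 11431 genes, 23 were called at an adjusted p under 0.05, 0.201% of those tested. These were 14 genes higher in anemia (0.122%) and 9 lower (0.0787%). Of the 14 higher genes 7 belong to 1 list, the genes of glycolysis and of the response to low oxygen. In this response the transcription factor HIF-1 raises the enzymes that break down glucose, sends pyruvate to lactate instead of the mitochondria, and raises proteins that remove mitochondria.

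Of 28 hypoxia and glycolysis genes tested, 7 rose and none fell, and 26 had a log2 fold change above 0. Their median was 0.29, beside 0.00420 over all genes tested. Of the list, 4 genes were without overlap between the groups in the direction of anemia, beside 0.464% of all genes, while 0.367% of all genes were without overlap in the other direction. Some genes of this list were known to rise in these mice when it was written. Summed over the list, the members held 3211 to 4051 CPM (median 3449) in control and 3750 to 5281 CPM (median 4678) in anemia mice.

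Among the 7 genes were enzymes of the glycolytic path. Gene positions are those of GENCODE M21 on GRCm38, and of the rows named Aldoa the one at 0 in every mouse was set aside. Aldoa (chr7:126795234-126800751), aldolase A, which splits the sugar phosphate, ran from 134 to 211 CPM (median 186) in control and from 235 to 391 CPM (median 322) in anemia mice. All 6 anemia mice lay above every control, and the log2 fold change was 0.83 ± 0.12 (SE; edgeR adjusted p = 0.00650). Tpi1 (chr6:124810586-124814296), triosephosphate isomerase, ran from 88.4 to 126 CPM (median 94.2) and from 114 to 171 CPM (median 148), with overlap through 1 high control mouse. Its log2 fold change was 0.55 ± 0.10 (SE; edgeR adjusted p = 0.0387).

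Pgk1 (chrX:106187100-106203699), phosphoglycerate kinase 1, which makes ATP in glycolysis, ran from 206 to 257 CPM (median 223) in control and from 275 to 357 CPM (median 291) in anemia mice, without overlap. Its log2 fold change was 0.44 ± 0.08 (SE; edgeR adjusted p = 0.0370). Without anemia 2 and 3, the mice with the least hepatocyte RNA in their members, a setting chosen after seeing the data, Tpi1 in members had a log2 fold change of 0.58 (edgeR adjusted p = 0.0561) and Pgk1 in members one of 0.39 (0.0863). With single mice left out, Pgk1 stayed called only without control 3, anemia 5 or anemia 6 (highest adjusted p = 0.0928), and Tpi1 only without control 3, anemia 3, anemia 5 or anemia 6 (highest adjusted p = 0.138).

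The genes that direct pyruvate away from the mitochondria rose as well. Ldha (chr7:46841475-46855627), lactate dehydrogenase A, ran from 231 to 304 CPM (median 238) in control and from 286 to 438 CPM (median 389) in anemia mice, and the lowest anemia mouse lay within the control range. The log2 fold change was 0.58 ± 0.10 (SE; edgeR adjusted p = 0.0158), and the call was lost without control 2 or without anemia 1 (highest adjusted p = 0.0619). Pdk1 (chr2:71873224-71903858), which blocks entry of pyruvate into the citric acid cycle, ran from 3.47 to 7.31 CPM (median 5.20) and from 7.70 to 21.4 CPM (median 12.4), without overlap. Its log2 fold change of 1.21 ± 0.24 (SE; edgeR adjusted p = 0.0444) rested on 209 UMIs, and the call was lost with called doublets left out, where the log2 fold change of Pdk1 in members was 0.97 (adjusted p = 0.119). With single mice left out it was kept only without control 6, anemia 3 or anemia 6 (highest adjusted p = 0.151).

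Slc16a3 (chr11:120948480-120960868), the lactate exporter MCT4, held 13 UMIs in all control members and 56 in all anemia members. It ran from 0 to 2.03 CPM (median 0.352) in control and from 2.04 to 9.81 CPM (median 5.72) in anemia mice, a log2 fold change of 2.82 ± 0.57 (SE; edgeR adjusted p = 0.0496). This call was kept in 4 of the 10 fits without a single mouse in which the gene was tested (highest adjusted p = 0.115). It was lost without anemia 2 and 3, where Slc16a3 in members stood at 2.74 on the log2 scale (adjusted p = 0.106). Bnip3 (chr7:138890836-138909519), a receptor for the removal of mitochondria, stood at 24.8 CPM in the lowest control mouse (median 29.1) and ran from 39.5 to 85.4 CPM (median 71.3) in anemia mice. Only the lowest anemia mouse fell below the highest control mouse, and the log2 fold change was 1.13 ± 0.16 (SE; edgeR adjusted p = 0.00650).

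**Figure D3:**
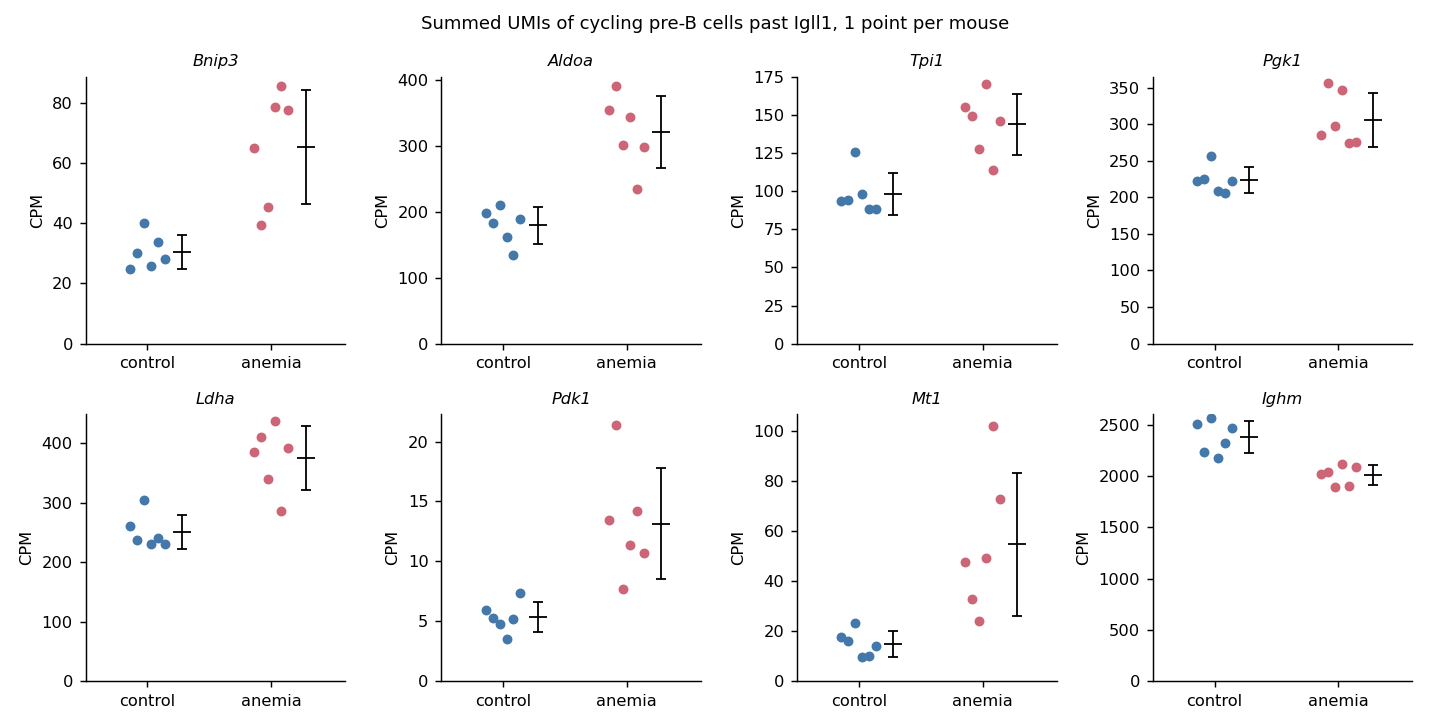
Summed UMIs of the members in CPM (y axis) for 8 genes in control and anemia mice (x axis), with 1 point per mouse and mean ± SD beside them (n = 6 per group). Bnip3, Aldoa, Tpi1, Pgk1, Ldha, Pdk1 and Mt1 were called higher in anemia, whereas Ighm (2181 to 2570 CPM in control, 1896 to 2118 CPM in anemia mice) was not called.

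The share of member cells with a UMI comes from the same UMIs as the calls and is given as a description only. Bnip3 was seen in a median of 9.96% of the members of a control mouse and 21.9% of those of an anemia mouse, without thinning. Aldoa was seen in 32.2% and 47.7%, Tpi1 in 26.1% and 39.9%, Pgk1 in 49.8% and 58.7%, and Ldha in 48.4% and 57.4%. Member cells had a median of 3131 to 3763 UMIs in control and 3300 to 4203.5 UMIs in anemia mice, so that depth moved in the same direction, and its part in these shares was not tested. Called doublets held 12.6% of all member UMIs and 11.7% of those of Bnip3, 13.8% of Pgk1, 17.4% of Tpi1, 20.8% of Ldha, 21.2% of Aldoa, 25.8% of Pdk1 and 40.6% of Slc16a3. With called doublets left out, 5 genes of the list were called higher, beside 27 of all 10723 genes tested in that fit.

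The other genes of the list did not pass the test. Mif, a cytokine that HIF-1 also raises, came nearest at a log2 fold change of 0.48 ± 0.10 (SE; edgeR adjusted p = 0.0649), from 170 to 199 CPM in control and from 197 to 344 CPM in anemia mice. Ankrd37 (0.81 ± 0.21), P4ha1 (0.51 ± 0.16), Eno1 (0.42 ± 0.12), Pkm (0.38 ± 0.11), Gpi1 (0.34 ± 0.09), Pfkl (0.33 ± 0.10) and Gapdh (0.24 ± 0.08) had positive fold changes with edgeR adjusted p-values of 0.152 to 0.315. The glucose transporter Slc2a1 stood at 0.10 ± 0.19 and the oxygen sensors Egln1 and Egln3 at 0.11 ± 0.10 and 0.19 ± 0.19. The hexokinase Hk2 (-0.32 ± 0.23) and the peptide hormone gene Adm (-0.39 ± 0.37) were the genes below 0.

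**Figure D4:**
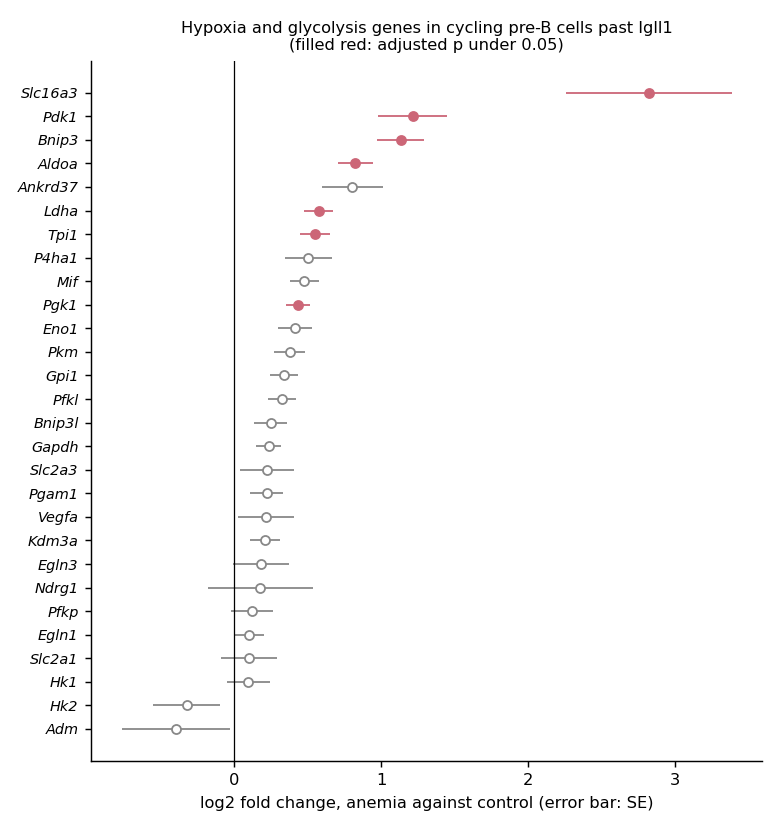
Log2 fold change in anemia against control (x axis, ± SE) of the 28 tested hypoxia and glycolysis genes (y axis) in cycling pre-B cells past Igll1, 6 mice per group. Filled red points are the 7 genes with an adjusted p under 0.05, and 26 of the 28 lie above 0.

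HIF-1 binds DNA at the core letters ACGTG, which were searched on both strands in the 250 bases before the start sites of the RefSeq promoter table (GRCm38.p6), a description that was added after the calls were seen. Of 27025 genes, 18.5% held the letters, as did 25.4% of the 8907 genes tested in the members with an entry. They were present in 14 of the 25 hypoxia and glycolysis genes with an entry (56.0%), in 5 of the 7 that rose and in 9 of the 18 that did not pass the test. The list was written as genes of glycolysis and of the response to low oxygen, so a share above the background can follow from its choice. Binding by HIF-1 was not tested. The letters were not found in this window of Tpi1 and Pdk1. To show what such a stretch looks like at the genes that rose, the match nearest to a start site is printed for each of the other genes, 5′ to 3′ on the gene's strand, with the core letters or their reverse complement in capitals.
Ldha, chr7:46845758-46845786 on the plus strand: cgtgggttcccgCACGTccgctgggctcc
Aldoa, chr7:126799364-126799392 on the minus strand: tgtggctcgagtCACGTcctagcggggcg
Bnip3, chr7:138909597-138909625 on the minus strand: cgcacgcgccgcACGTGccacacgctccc
Slc16a3, chr11:120949041-120949066 on the plus strand: cgtgcgcgggggACGTGccgcgcgac
Pgk1, chrX:106186957-106186985 on the plus strand: aaatggaagtagCACGTctcactagtctc
These matches lie 34, 126, 107, 14 and 131 bases before the start, in the order printed.

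The metallothioneins, small proteins that bind zinc and copper, also rose. Mt1 (chr8:94179082-94180327) ran from 9.38 to 23.2 CPM (median 14.9) in control and from 23.8 to 102 CPM (median 48.3) in anemia mice, without overlap. Its log2 fold change was 1.88 ± 0.28 (SE; edgeR adjusted p = 0.00788). A UMI of Mt1 was seen in a median of 4.03% of control and 10.0% of anemia members, and 40.6% of its UMIs were in called doublets. Mt2 ran from 0.695 to 1.65 CPM (median 0.838) and from 0 to 11.2 CPM (median 7.99), a log2 fold change of 2.77 ± 0.54 (SE; edgeR adjusted p = 0.0444) that rested on 88 UMIs. With single mice left out, the Mt2 call was kept only without anemia 2 or 3 (highest adjusted p = 0.159). Anemia 2 and 3 were at or near 0 for Mt2, with the other 4 anemia mice above every control. Both were also the lowest anemia mice for Mt1, and their members held 827 and 752 CPM of the listed hepatocyte genes. The other 4 anemia mice held 3626 to 6611 CPM of these genes and the control mice 3697 to 7378 CPM. Of the Mt2 UMIs 39.8% were in called doublets. The part of RNA from other cells in the rise of Mt1 and Mt2 was not tested.

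Genes of mixed function made up the other calls towards anemia. Gm10076 (log2 fold change 0.82 ± 0.10, SE, adjusted p = 0.00209) and the histone gene Hist1h2ap (0.41 ± 0.08, adjusted p = 0.0444) were called by edgeR and without overlap, but these genes have near-identical copies elsewhere in the genome, so their counts are uncertain. Apoa4, an apolipoprotein, rose by a log2 fold change of 3.94 ± 0.63 (edgeR adjusted p = 0.0117) from 11 control UMIs to 109 anemia UMIs. Of its member UMIs 42.5% were in called doublets. Its level was 1.64 CPM in anemia 2 and 2.80 CPM in anemia 3, the mice with the least hepatocyte RNA. The other anemia mice held 6.91 to 24.8 CPM and the control mice 0 to 1.37 CPM.

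Car1, a carbonic anhydrase of red cell precursors, had a log2 fold change of 4.24 ± 0.84 (SE; edgeR adjusted p = 0.0467). Its 317 UMIs in anemia came from 12 cells, with 163 of them in 1 cell, and 64.8% of all its member UMIs were in called doublets. The call was lost in DESeq2, in voom and with sex, read from Xist and Y-linked transcripts, as a covariate, and was kept in 3 of 12 fits without a single mouse. The Hist1h2ap call was kept in 4 of those 12, and the Apoa4 call was lost without anemia 1 (adjusted p = 0.0503).

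9 genes fell in anemia. Nfkbid (chr7:30421732-30428746), a nuclear inhibitor of NF-kappaB, ran from 148 to 204 CPM (median 162) in control and from 115 to 136 CPM (median 121) in anemia mice, without overlap. It fell by 0.49 ± 0.08 on the log2 scale (SE; edgeR adjusted p = 0.0158), and the call was lost without anemia 1 (adjusted p = 0.0619). Fndc3b, a membrane protein with fibronectin domains, ran from 38.2 to 51.2 CPM (median 42.5) in control and reached at most 32.9 CPM (median 28.0) in anemia mice, without overlap. It fell by 0.59 ± 0.11 (SE; edgeR adjusted p = 0.0277), a call that was lost with called doublets left out.

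Slco4a1, a transporter of organic anions, fell by 0.73 ± 0.14 (edgeR adjusted p = 0.0444), from a median of 76.5 to 46.9 CPM. Reln, a secreted matrix protein, fell by 0.79 ± 0.14 (edgeR adjusted p = 0.0277), from a median of 42.5 to 25.6 CPM. Both overlapped slightly between the groups. The antisense transcript Gm16853 fell by 1.24 ± 0.24 (adjusted p = 0.0444) and Gm11808, which has near-identical copies, by 0.55 ± 0.10 (adjusted p = 0.0387).

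Serpina6 (log2 fold change -3.16 ± 0.48, edgeR adjusted p = 0.00788), Timp3 (-2.21 ± 0.44, adjusted p = 0.0496) and Pls3 (-2.01 ± 0.40, adjusted p = 0.0467) reached at most 9.23, 10.9 and 9.57 CPM in any mouse. Serpina6 encodes a steroid-binding plasma protein of hepatocytes and Timp3 an inhibitor of matrix proteases. Of the member UMIs of Timp3 60.2% were in called doublets, of Pls3 55.3% and of Serpina6 23.6%. With single mice left out, the calls of Timp3 and Pls3 were each kept in 2 of 12 fits, of Slco4a1 in 3, of Gm11808 in 4, of Reln and Fndc3b in 6, of Gm16853 in 1 and of Serpina6 in 12.

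Sex was not balanced between the groups, and with it as a covariate 17 genes were called, 14 of them among the 23. Beside Car1 (edgeR adjusted p = 0.147), the calls of Pdk1 (0.0826), Slc16a3 (0.0839), Mt2 (0.139), Hist1h2ap (0.0793), Fndc3b, Gm11808 (0.0943), Gm16853 (0.0943) and Pls3 (0.121) were lost, each in the same direction as before. The lowest of these adjusted p-values was that of Fndc3b in members, at 0.0607. Without anemia 2 and 3 18 genes were called, 14 of them among the 23, and beside Tpi1, Pgk1 and Slc16a3 the calls of Hist1h2ap, Gm11808, Gm16853, Slco4a1, Timp3 and Pls3 were lost, in the same direction as before.

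Genes that define the B-cell program were not called. Of 20 B-lineage regulators none was called (median log2 fold change -0.03, lowest adjusted p = 0.240). Ebf1 stood at a median of 5398 CPM in control and 5172 CPM in anemia mice (0.02 ± 0.06), Bach2, a repressor that guards the B-cell fate, at 3654 and 3401 CPM (-0.03 ± 0.07), Vpreb3 at 1361 and 1273 CPM (-0.06 ± 0.07), and Blnk, the adaptor of the pre-B cell receptor, at 1263 and 1139 CPM (-0.16 ± 0.07). None of 18 genes of interleukin-7 receptor and pre-B receptor signaling was called (median 0.03). In this list Pim1, a kinase gene switched on by interleukin-7, stood at -0.22 ± 0.09, Lyn at -0.17 ± 0.06, Syk, the kinase that carries the pre-B receptor signal, at 0.05 ± 0.07 and the cyclin gene Ccnd3 at 0.11 ± 0.09. Il7r stood at 0.35 ± 0.12 (edgeR adjusted p = 0.273).

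None of 12 genes of V(D)J recombination and end joining was called (median 0.14). The 4 with the highest level were Hmgb1 (-0.07 ± 0.06), Hmgb2 (-0.12 ± 0.07), Xrcc6 (0.13 ± 0.10) and Dclre1c (0.23 ± 0.10), of which Dclre1c encodes the nuclease Artemis. Of the recombinase genes, Rag1 stood at 0.14 ± 0.16 and Rag2 at 0.40 ± 0.19. None of 15 B cell maturation genes was called (median 0.18), with Cd74 at 0.26 ± 0.20, Klf2 at -0.21 ± 0.21, H2-Aa at 0.31 ± 0.15 and H2-Ab1 at 0.04 ± 0.11. None of 7 immunoglobulin constant regions was called (median -0.20). Ighm ran from 2181 to 2570 CPM (median 2398) in control and from 1896 to 2118 CPM (median 2032) in anemia mice. The groups did not overlap, but its log2 fold change of -0.25 ± 0.05 (SE) did not pass the adjusted threshold (edgeR adjusted p = 0.0704). Of the 7 genes, 2 lay above 0 and 5 below. Igkc stood at -0.20 ± 0.08 (adjusted p = 0.386), Iglc2 at -0.59 ± 0.25 (adjusted p = 0.394) and Iglc1 at 0.13 ± 0.29 (adjusted p = 0.929). Iglc1 ran from 101 to 160 CPM (median 138) in control and from 49.0 to 288 CPM (median 154) in anemia mice, a spread that enclosed the control range. Jchain, the joining chain of secreted IgM and IgA, stood at -7.26 ± 2.13 (adjusted p = 0.211), with 454 UMIs in 9 control cells and 1 UMI in anemia members.

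Division genes were not called in either direction, in cells that the rule chose for UMIs of Top2a and Mki67. The lists therefore compare cells already chosen as dividing and cannot show whether anemia changed how many cells divide. Of 31 DNA replication genes 27 lay below 0 (median -0.10, lowest edgeR adjusted p = 0.242), among them Rrm2 (-0.10 ± 0.07), Slbp (-0.17 ± 0.08), Dut (-0.04 ± 0.07) and Pcna (-0.16 ± 0.08). Of 31 mitosis genes 22 lay above 0 (median 0.12, lowest edgeR adjusted p = 0.139). With called doublets left out 1 was called higher, beside 27 of all 10723 genes tested in that fit. The list held Kif11 (0.17 ± 0.09), Ube2c (-0.01 ± 0.07), Cenpa (-0.04 ± 0.07) and Ccnb2 (-0.08 ± 0.08).

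No gene was called among 16 Myc and nucleolar growth genes (median 0.02), 13 p53 targets and BCL2 family genes (0.05), 10 glucocorticoid response genes (-0.11) and 2 genes of fetal B lymphopoiesis (-0.11). Of the growth genes, the nucleolar Npm1 stood at 0.01 ± 0.08 and Ncl at 0.07 ± 0.11, Pa2g4 at -0.07 ± 0.07 and the chaperone Hspd1 at 0.14 ± 0.10. The survival genes Mcl1 and Bcl2l1 stood at -0.14 ± 0.08 and -0.05 ± 0.09, the death gene Bcl2l11 at 0.11 ± 0.09, and the p53 targets Mdm2 and Cdkn1a at 0.05 ± 0.07 and 0.34 ± 0.11. The glucocorticoid targets Fkbp5 and Tsc22d3 stood at 0.24 ± 0.09 and 0.34 ± 0.15, and Nfkbia and Dusp1 at -0.27 ± 0.09 and -0.23 ± 0.14. The fetal RNA-binding protein gene Igf2bp3 stood at -0.05 ± 0.08 and Arid3a at -0.17 ± 0.09. All 17 interferon response genes had a log2 fold change above 0 (median 0.49), and none was called (lowest adjusted p = 0.432), with Ifi27l2a at 0.53 ± 0.34, Ifitm3 at 0.11 ± 0.30 and Ifi47 at 0.99 ± 0.49. The summed level of the list stood at 1708 CPM in anemia 2, while the other 5 anemia mice held 347 to 711 CPM, within the 276 to 714 CPM of the control mice. Of 12 tested genes that the study names for B cells, a list chosen on these samples, Mt2 was called and the median was -0.66. With called doublets left out 1 was called higher and 6 lower, beside 27 higher and 49 lower of all 10723 genes tested in that fit.

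RNA of other cell types was present in the members and differed between mice. The 23 hepatocyte genes summed to 3697 to 7378 CPM (median 4354) in control members and 752 to 6611 CPM (median 4071) in anemia members, with anemia 3 lowest, then anemia 2 at 827 CPM. None of the 23 was called and 19 lay below 0 (median -0.29). With called doublets left out, however, 8 were called lower and 1 higher, beside 49 lower and 27 higher of all 10723 genes tested in that fit. The 11 erythroid rows summed to 46.5 to 98.0 CPM (median 56.4) and 65.1 to 191 CPM (median 136), with 1 of 9 tested genes called higher (median 0.96), and the adult globins of the rule to 375 to 1697 CPM and 1160 to 3272 CPM. Neutrophil genes summed to 41.0 to 127 CPM and 59.3 to 371 CPM, macrophage and monocyte genes to 68.4 to 97.6 CPM and 47.0 to 189 CPM, T and NK genes to 12.3 to 22.3 CPM and 4.59 to 50.4 CPM, and endothelial genes to 60.8 to 112 CPM and 39.2 to 70.3 CPM. None was called among 6 neutrophil genes (median 0.54), 9 macrophage and monocyte genes (-0.23), 3 T and NK genes (1.08), 5 endothelial genes (-0.45), 4 plasmacytoid dendritic genes (0.13), 5 plasma cell genes (-0.35) and 4 progenitor genes (-0.03). No gene of these lists was at 0 over all 12 mice.

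In the sum over all kept cells, the hypoxia and glycolysis list stood at 4422 to 5471 CPM in control and 5986 to 11461 CPM in anemia mice, above its level in the members. The part of RNA from other cells in the rise of this list was not tested. With all listed hepatocyte and erythroid genes removed from the table, 22 genes were called. Car1 was the only called gene on these lists, and other RNA of those cells stays in the sums. This setting therefore does not measure that part.

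To place the response, the same comparison was made in the other populations of these mice, which share the control mice with the comparison above, and the values are set side by side. At an adjusted p under 0.05, 0.0616% of 9741 genes were called in surrogate light chain cycling cells, 0.527% of 10056 in cycling NK/T cells and 1.23% of 12811 in non-cycling past-Igll1 cells. These shares count both directions, and 4, 13 and 66 of the called genes were higher in anemia, in the same order. Of the hypoxia and glycolysis list, 1 of 25, 6 of 27 and 1 of 28 genes were called higher. Bnip3 was called in all 4 populations, with log2 fold changes of 1.13 ± 0.16 in the members, 0.90 ± 0.17 in surrogate light chain cycling cells, 0.66 ± 0.15 in non-cycling cells and 1.73 ± 0.21 in cycling NK/T cells. Aldoa stood at 0.83 ± 0.12, 0.41 ± 0.10, 0.32 ± 0.11 and 1.32 ± 0.22 in the same order, and was called in the members and in cycling NK/T cells. Nfkbid stood at -0.49 ± 0.08, 0.01 ± 0.20, -0.00 ± 0.09 and 0.21 ± 0.18, and was called in the members. Fndc3b stood at -0.59 ± 0.11, -0.10 ± 0.17, -0.18 ± 0.15 and -0.08 ± 0.18.

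**Figure D5:**
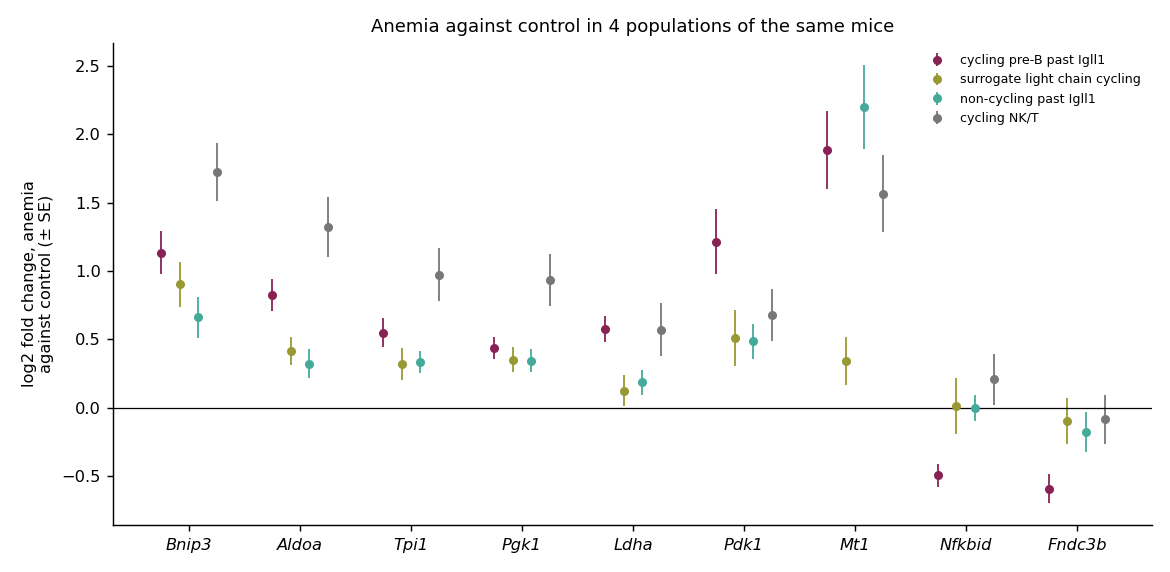
Log2 fold change in anemia against control (y axis, ± SE) of 9 genes (x axis) in 4 populations of the same 12 mice. Bnip3 lies between 0.66 and 1.73 in the 4 populations, and Mt1 at 1.88 in the members beside 0.34 in surrogate light chain cycling cells.

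The difference between the members' response and that of another population was tested as an interaction with mouse as a block. Against surrogate light chain cycling cells 10 of 10747 genes were called (0.0930%). Mt1 responded more in the members, by 1.57 ± 0.27 (SE; edgeR adjusted p = 0.00935), with 0.34 ± 0.18 in surrogate light chain cycling cells. So did Ldha, by 0.47 ± 0.09 (edgeR adjusted p = 0.0173), with 0.12 ± 0.11 in surrogate light chain cycling cells, where its level was 785 to 1036 CPM in control mice. The Mt1 interaction lost its call in DESeq2, after thinning and without control 5, and that of Ldha in DESeq2 and without control 5, control 6, anemia 2 or anemia 4. The interactions of Bnip3 (0.26 ± 0.17), Aldoa (0.43 ± 0.10), Nfkbid (-0.47 ± 0.19) and Fndc3b (-0.46 ± 0.18) did not pass (adjusted p = 0.763, 0.104, 0.477 and 0.464).

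Emb, a membrane partner of monocarboxylate transporters, had the largest positive interaction at 1.89 ± 0.31 (edgeR adjusted p = 0.00750), with a median of 5.72 CPM in control and 16.2 CPM in anemia members and of 13.5 and 8.10 CPM in surrogate light chain cycling cells. Beside Mt1 (1.57) and Ldha (0.47), the other positive interactions were Serpina1e (1.44), Alox5ap (1.24), Car2 (1.08) and Ass1 (0.61). In the other direction stood Eln (-4.01), Magi3 (-0.41) and Cecr2 (-0.33). Serpina1e is a plasma protein gene of hepatocytes with near-identical copies, Alox5ap serves leukotriene synthesis in myeloid cells and Car2 is a carbonic anhydrase of red cell precursors. Of the member UMIs of Eln, the elastin gene, 92.7% were in called doublets, of Alox5ap 63.3% and of Serpina1e 51.8%. Of the Emb UMIs 38.3% were in called doublets, and its interaction lost the call after thinning. With called doublets left out, Emb, Mt1, Ldha and Cecr2 were the 4 of these 10 genes still called. Eln then turned to 0.39 and Serpina1e to -0.16, and the other 4 kept their direction. Each of the 6 genes other than Emb, Mt1, Ldha and Cecr2 also lost its call after thinning, in DESeq2 and without several single mice, and Cecr2 after thinning and without each of the 6 control mice in turn.

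Against cycling NK/T cells 0 of 11084 genes were called (0%) by edgeR and 0 by DESeq2, with 883 genes at an unadjusted p under 0.05 in edgeR. The interaction of Bnip3 was -0.69 ± 0.26, of Aldoa -0.39 ± 0.19 and of Mt1 0.12 ± 0.39 (edgeR adjusted p = 0.488, 0.633 and 0.990).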

How the data were processed

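Single-cell suspensions of 12 livers were profiled with the 10x Genomics 3' assay, 1 library per mouse. The authors deposited UMI counts per gene and barcode (Cell Ranger 7.0.0 per the file headers, mm10 per the labels), without normalization, and no listed barcode had fewer than 500 UMIs. The labels and the study's methods name different kit versions. Gene positions, where used, are those of GENCODE M21 on GRCm38. Members and gene lists were chosen with earlier results of these data known, and the members, their stage markers and the hypoxia list are not independent of them. 23 lists were used.

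Counts of members were summed per mouse. Tested genes averaged 5 UMIs or more over the mice. Mitochondrial, ribosomal protein and rule genes were left out. The test was run with edgeR 4.0.16 (quasi-likelihood, TMM, Benjamini-Hochberg adjustment over all tested genes) in R 4.3.3. CPM use all member UMIs of a mouse. Shares were compared over mice by exact two-sided Mann-Whitney tests, adjusted over 8 shares, with cells thinned to 2000 UMIs for stage make-up. Intervals on a mouse's share (95%, Wilson) cover counting error only, and p-values measure the spread between mice. Doublets were called by scanpy 1.11.5 (Scrublet, 20 components), as the top scores at 0.8% per 1000 barcodes, and kept. Alternatives were DESeq2 1.42.0, voom (limma 3.58.1), filters, depth, doublets, a covariate and left-out mice. In simulated counts of 11431 genes, the member test recovered 89 of 100 genes changed by 2 on the log2 scale, and 76 of 100 changed by 1, with 13 false calls. The interaction test with surrogate light chain cycling cells recovered 73 of 100 and 48 of 100, with 11 false calls. Smaller changes and the interaction with cycling NK/T cells were not simulated.

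Genes named are those of the rule, those called in each list or its 4 highest by CPM, and up to 10 per direction called with at least 10 CPM and no overlap (at least 20 CPM against surrogate light chain cycling cells), and up to 5 per direction per interaction. For the lists of other cell types and the list the study names, sums, counts and medians are given in place of the 4 highest genes. Other list genes and called genes were named after their values were seen. Some called or listed genes are not reported here.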

Additional observations from a re-analysis of the deposited data

Results flagged for a closer look

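Among 62 groups of 6 values of the called and interaction genes, 5 held a value far from the others by Dixon's criterion, and chance alone flags about 1 in 20. Car1 was high at 7.64 CPM in control 4, beside 1.49 CPM in the next control mouse, and at 84.2 CPM in anemia 6, beside 30.1 CPM. Gm11808 stood at 317 CPM in control 3, beside 233 CPM, Mt2 at 1.65 CPM in control 1, beside 1.03 CPM, and Tpi1 at 126 CPM in control 3, beside 98.3 CPM.

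For 10 genes the response to anemia in the members differed from that in surrogate light chain cycling cells by the interaction test. The difference (log2) was positive for Emb (1.89), Mt1 (1.57), Serpina1e (1.44), Alox5ap (1.24), Car2 (1.08), Ass1 (0.61) and Ldha (0.47), and negative for Eln (-4.01), Magi3 (-0.41) and Cecr2 (-0.33). Magi3 and Cecr2 had log2 fold changes of -0.21 ± 0.10 and -0.17 ± 0.08 in the members and of 0.23 ± 0.11 and 0.19 ± 0.09 in surrogate light chain cycling cells.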

How the results depend on the processing

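The member share of kept cells was lower in anemia in all settings tried, from -4.11 to -2.08 percentage points, and -2.74 to -2.22 without single mice. It did not pass the adjusted threshold in an exact sign-flip test with the replicate number as a block (-2.48, adjusted p = 0.173, p = 0.0313, the smallest that 6 pairs allow), nor without anemia 2 and 3 (-2.08, adjusted p = 0.0762, p = 0.00952, the smallest that 6 against 4 allow), a setting chosen after seeing the data. Thinning made the member share of B-lineage cells (-14.4) and the cycling share of past-Igll1 B-lineage cells (-15.1) pass. There the rule was applied to thinned counts, which changed the cells that met it and raised the level of both shares. Without single mice the former ran from -6.06 to -3.96, the latter from -6.75 to -4.18, and the member share of cycling B-lineage cells from -4.42 to -2.22, where it passed without anemia 2. The light chain share turned to 1.07 without thinning and 1.14 at 3000 UMIs. Genes called in members numbered 23, but 74 with DESeq2, 102 without a filter, 76 without doublets, 41 after thinning (chosen after seeing the data), 28 with the replicate block and 6 to 38 without single mice (6 without anemia 1, 38 without anemia 6, 8 without control 2, 10 without control 1). Of the 23 genes, 12 were among those called after thinning and 14 among those with the replicate block. Reln, Pdk1, Fndc3b and Gm16853 were tested after thinning and lost their calls. Of the 14 genes higher and 9 lower, the split was 32 and 42 with DESeq2, 37 and 65 without a filter and 27 and 49 without doublets. Aldoa, Bnip3, Gm10076 and Mt1 stayed called in all 14 settings and without any single mouse. Pgk1 kept the call in 3 of 12 fits without a single mouse and Tpi1 in 4. The replicate numbers did not pair the mice (correlations -0.153 to 0.156 over 8290 genes). Members against surrogate light chain cycling cells gave 3941 genes at a mean of 50 UMIs, 3977 after thinning and 6520 to 6984 without single mice. The interaction with those cells gave 93 genes without a filter, 6 at a mean of 50 UMIs, 14 without doublets (4 of them among the 10), 2 with DESeq2, 2 after thinning and 1 to 23 without single mice. That with cycling NK/T cells gave 145 without a filter, 4 after thinning and 0 to 2 without single mice. Eln turned to 0.39 and Serpina1e to -0.16 without doublets. The causes of these differences between settings were not tested.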
